A study of Mus musculus with 6 samples.

Results

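The 10 genes described here, Slc6a13, Slc47a1, Slc22a6, Aldh1a2, Crabp2, Ptgds, Dcn, Lum, Foxc1 and Foxd1, are known as markers of meningeal fibroblasts. They were taken from a list of names. All 10 were found by Ensembl gene ID among the 35275 genes of the deposited tables, and all 10 had reads in every library. Per the labels the samples were cultured neurons from the spinal cord of 3 day old ICR mice, which are outbred, and the medium was DMEM. In TG the cells were injured mechanically and then incubated with 75% hydrogen, in NG they were injured mechanically and given no hydrogen, and IG is the untreated control. Each of the 3 groups had 2 RNA-seq libraries, named A where the read total was larger and B where it was smaller. Whether both came from different dishes or mice is not stated in the labels, so the p-values speak only for the variation among the 6 libraries, part or all of which may be technical.

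Meningeal fibroblasts build the membranes that wrap the brain and spinal cord. They lay down collagen and the small proteoglycans that coat collagen fibrils, make retinoic acid and prostaglandin D2, and carry organic ions and transmitter amino acids between cerebrospinal fluid and blood. Forkhead transcription factors are needed for them to form. Several of the 10 genes are also known outside the meninges: Dcn and Lum in fibroblasts of most organs, Ptgds in oligodendrocytes, and the transporters in kidney. This list of other sources is not complete.

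The promoters of 2 pairs of these genes are shown: Foxc1 with Foxd1, and Aldh1a2 with Slc22a6. In each pair, either gene was the other's nearest among the 10 in pattern across the 6 libraries (distances below). Several other pairs of the 10 were closer than Foxc1 and Foxd1. A RefSeq promoter on build GRCm38.p6, running from 250 bases before to 50 bases after the gene's start, was found for 6 of the 10 genes. All 4 shown are on the plus strand and read 5′ to 3′. They lie at chr13:31806396-31806695 for Foxc1, chr13:98353995-98354294 for Foxd1, chr9:71215539-71215838 for Aldh1a2 and chr19:8617746-8618045 for Slc22a6. Capitals mark CCAAT and GGGCGG, letters of the CCAAT box and the GC box, on either strand.
Foxc1: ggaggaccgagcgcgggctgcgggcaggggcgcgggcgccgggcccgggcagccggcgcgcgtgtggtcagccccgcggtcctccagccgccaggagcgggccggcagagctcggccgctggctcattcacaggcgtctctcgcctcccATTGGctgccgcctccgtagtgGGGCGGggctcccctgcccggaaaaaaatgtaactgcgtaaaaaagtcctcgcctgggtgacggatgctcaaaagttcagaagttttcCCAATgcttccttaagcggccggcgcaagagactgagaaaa
Foxd1: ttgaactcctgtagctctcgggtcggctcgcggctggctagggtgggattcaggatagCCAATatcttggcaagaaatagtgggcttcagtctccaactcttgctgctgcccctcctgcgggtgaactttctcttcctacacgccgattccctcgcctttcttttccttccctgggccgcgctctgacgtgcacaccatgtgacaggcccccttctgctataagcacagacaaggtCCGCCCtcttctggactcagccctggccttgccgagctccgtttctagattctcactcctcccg
Aldh1a2: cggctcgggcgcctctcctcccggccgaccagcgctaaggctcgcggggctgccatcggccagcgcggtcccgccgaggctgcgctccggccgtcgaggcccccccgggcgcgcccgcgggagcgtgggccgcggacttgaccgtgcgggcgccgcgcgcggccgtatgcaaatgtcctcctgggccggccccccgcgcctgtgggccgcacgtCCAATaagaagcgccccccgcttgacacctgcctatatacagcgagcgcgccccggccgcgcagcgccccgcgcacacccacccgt
Slc22a6: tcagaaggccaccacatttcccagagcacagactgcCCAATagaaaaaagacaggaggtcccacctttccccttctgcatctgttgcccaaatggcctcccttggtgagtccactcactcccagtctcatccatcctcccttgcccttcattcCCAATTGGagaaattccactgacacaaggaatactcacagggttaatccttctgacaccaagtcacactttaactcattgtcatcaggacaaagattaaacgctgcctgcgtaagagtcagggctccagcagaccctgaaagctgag

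CCAAT occurred 2 times in the Foxc1 promoter, 1 time each in those of Foxd1 and Aldh1a2, and 3 times in that of Slc22a6, where a pair of matches on opposite strands overlapped. GGGCGG occurred 1 time each in Foxc1 and Foxd1 and in neither Aldh1a2 nor Slc22a6. Of 32851 RefSeq promoters of this length, 37.4% held CCAAT and 35.7% held GGGCGG, so these matches are common letters. The forkhead motif GTAAACA (3.65% of promoters), the retinoid receptor half-site AGGTCA (16.3%) and TATAAA (13.6%) were found on neither strand in any of the 6 windows. The promoters differed widely in CG dinucleotides: 32 in Foxc1, 15 in Foxd1, 50 in Aldh1a2 and 2 in Slc22a6, against a median of 7 and quartiles of 3 and 20 over all promoters.

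Gene reads per library numbered 15749447 to 23911141. Libraries A and B of each group differed beyond sampling noise (chi-square per gene of 5.40 in TG, 17.3 in NG and 8.94 in IG). Levels below are normalised reads per library, in the order A and B. The lowest count of the 10 genes was 45 reads, for Slc22a6 in TG B, and the highest 36384, for Ptgds in IG A. Transcripts of other cell types were abundant beside those of neurons. The 15 neuron markers summed to 102574 to 105563 normalised reads in TG, 44760 to 47218 in NG and 84293 to 86267 in IG. The 14 oligodendrocyte lineage markers summed to 996921 to 1007830 in TG, 388452 to 412637 in NG and 789704 to 798084 in IG. The 7 red blood cell markers, globins among them, summed to 394190 to 429671 in TG, 305387 to 340339 in NG and 356395 to 395446 in IG, above the neuron sum in every group, though the samples are labelled as neurons. The 12 general fibroblast markers, collagens among them, summed to 20362 to 20525 in TG, 118591 to 122779 in NG and 43726 to 45482 in IG.

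In TG against IG, every one of the 10 genes was lower in both TG libraries than in both IG libraries. By limma's test over 24511 genes, with a Benjamini-Hochberg adjusted p under 0.05, 8 of the 10 fell, against 11.3% of all genes called in either direction, 7.18% lower and 4.16% higher. Foxc1 and Foxd1 were lower by 0.92 and 1.29 on the log2 scale and did not pass. Both did with a term for library B against A, an alternative chosen after seeing the data (below). The 10 log2 fold changes lay between -1.36 and -0.73, a width of 0.63, with a median of -1.16 against 0.0068 over all genes tested. The libraries of the 2 groups did not overlap for 49.7% of all genes, with TG lower for 24.1% and higher for 25.6%. With 1 library of TG or of IG left out, the fit called none of the 10, and few genes at all: 2 without TG A, 0 without TG B, 76 without IG A and 81 without IG B. At an unadjusted p under 0.05 the same limma fits had 8 of the 10 without TG A, 8 without TG B, 9 without IG A and 8 without IG B, against 4687, 4805, 5060 and 4813 of all genes tested in those fits, 19.5% in the first. Without NG A or NG B it called 6 of the 10, against 4.19% and 3.90% of all genes. Fewer cells of a type and less RNA per cell cannot be told apart in bulk RNA, here or in any result that follows.

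In NG against IG, the genes divided. Dcn and Lum, both matrix proteoglycans, rose, and Ptgds, Crabp2, Aldh1a2 and Slc47a1 fell, so that 6 of the 10 passed the test, against 40.1% of all genes (19.7% higher and 20.4% lower). The log2 fold changes ran from -1.29 to 1.72, a width of 3.01, with a median of -0.29 against 0 over all genes. The libraries of NG and IG did not overlap for 8 of the 10, against 62.4% of all genes. NG was lower for 6 of the 8, against 30.2% of all genes, and higher for 2, against 32.3%. Foxc1 and Foxd1 were the genes whose libraries overlapped.

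In TG against NG, 7 of the 10 fell and none rose, against 45.3% of all genes called and 23.1% called lower. Slc22a6, Aldh1a2 and Ptgds did not pass. The log2 fold changes ran from -3.08 for Lum to 0.09 for Ptgds, with a median of -0.70 against 0 over all genes. The libraries did not overlap for any of the 10, as for 65.8% of all genes. TG was lower for 9, against 33.7% of all genes, and higher for 1, Ptgds, against 32%. Without TG A or without TG B, 3 of the 10 were called, Dcn, Lum and Slc47a1, a share near the 32.3% of all genes called in each of these fits. The comparisons share libraries: TG stands in TG against IG and TG against NG, NG in 2 of them and IG in 2. The authors' deposited table called 8 of the 10 in TG against IG, 6 in NG against IG and 5 in TG against NG, against 11.1%, 31% and 37.5% of the genes with a value in it.

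**Figure D1:**
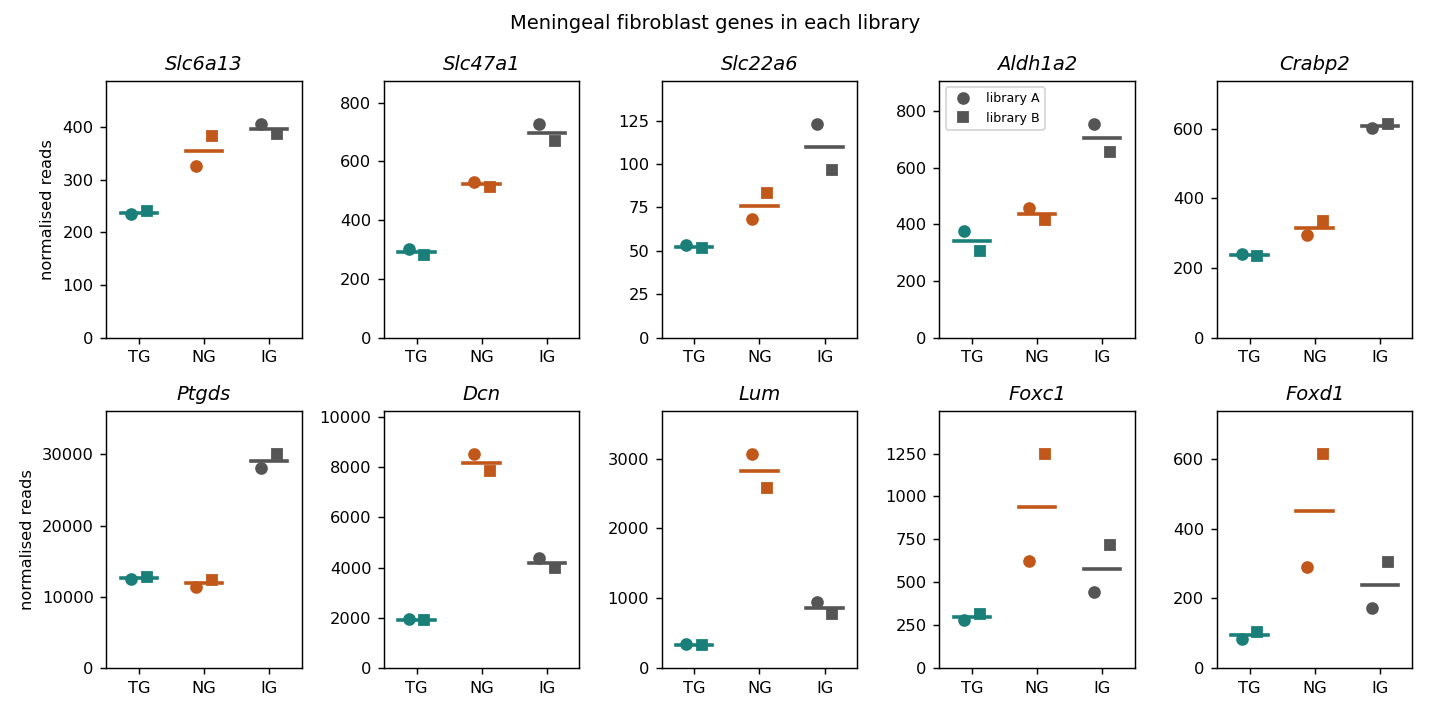
Normalised reads of the 10 genes in each library, with the groups TG, NG and IG from left to right and a linear axis from 0 in each panel; circles are library A, squares library B and bars the mean of the 2. In all 10 panels both TG points lie below both IG points, while Dcn and Lum peak in NG, at up to 8532 and 3068 normalised reads.

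Of the transporters, Slc47a1 encodes MATE1, an exchanger that expels organic cations. It lies at chr11:61343401-61378345 (mm10, minus strand). It had 303 and 281 normalised reads in TG, 531 and 513 in NG, and 728 and 668 in IG. The 3 groups were fully apart, with TG lowest and IG highest. Slc47a1 was 2.39-fold lower in TG than in IG (by limma, -1.25 ± 0.10 SE on the log2 scale, adjusted p = 1.7e-04) and 1.79-fold lower in TG than in NG (-0.84 ± 0.10, adjusted p = 1.5e-04). It was 1.34-fold lower in NG than in IG (-0.42 ± 0.10, adjusted p = 0.0091). Slc47a2, the sister gene 540 bases away, was rare, at 6.87 ± 1.65 normalised reads in TG, 26.1 ± 3.96 in NG and 13.3 ± 5.74 in IG (SD, n = 2 each).

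Slc6a13 encodes GAT2, which takes up GABA and taurine, and lies at chr6:121300227-121337733 on the plus strand. It had 235 and 241 normalised reads in TG, 326 and 383 in NG, and 406 and 386 in IG. NG and IG nearly touched, while TG stood clear below both. The gene was 1.66-fold lower in TG than in IG (-0.73 ± 0.12, limma adjusted p = 0.0052) and 1.48-fold lower in TG than in NG (-0.57 ± 0.12, adjusted p = 0.0038). The difference of NG from IG, -0.17 ± 0.12, did not pass (adjusted p = 0.31).

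Slc22a6 encodes OAT1, the uptake carrier of organic anions, and lies at chr19:8618039-8628299 on the plus strand. It was the lowest of the 10, with 53.1 and 51.3 normalised reads in TG, 68.0 and 83.1 in NG, and 123 and 96.3 in IG. The groups again stood in the order TG, NG, IG without overlap. Only TG against IG passed the test, at 2.06-fold lower (-1.05 ± 0.21, limma adjusted p = 0.015). NG against IG (-0.53 ± 0.21) and TG against NG (-0.52 ± 0.21) did not, with adjusted p = 0.079 and 0.077.

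Related transporters from wider lists showed mixed directions. All 5 GABA, taurine, creatine and betaine transporter genes fell in NG against IG, with a median log2 fold change of -1.18, and 4 of the 5 rose in TG against NG, with a median of 0.82. Slc6a11, a GABA transporter of astrocytes, was among them, at -1.22 in NG against IG and 1.19 in TG against NG. In TG against IG, Slc6a6, the taurine transporter, rose by 0.29 and Slc6a12, the betaine transporter, fell by 1.18. Slc6a12 lies 5342 bases from Slc6a13 and had 81.3 and 83.3 normalised reads in TG, 60.3 and 63.9 in NG, and 175 and 201 in IG. It also fell in NG against IG (-1.58 ± 0.17, limma adjusted p = 1.2e-04), where Slc6a13 did not pass, though the 2 genes' changes were not tested against each other.

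Of 15 organic ion transporter genes, none rose and 2 fell in TG against IG, Abcb1a (-0.70) and Abcg2 (-0.47), both efflux pumps of the blood-brain barrier, with a median over the list of -0.24. In NG against IG, 3 rose and 6 fell, with a median of -0.23, and in TG against NG 5 rose and 5 fell, with a median of 0.0051. Slc22a2, an organic cation carrier, rose in NG against IG by 2.24 at a low level, with at most 28.2 normalised reads in an NG library. Slc22a7 fell by 1.66 in the same comparison. Slc22a8, the anion carrier OAT3, lies 6203 bases from Slc22a6 and had 323 ± 14.4 normalised reads in TG, 236 ± 7.67 in NG and 383 ± 26.0 in IG (SD, n = 2 each). It fell in NG against IG (-0.70, limma adjusted p = 0.0011) and rose in TG against NG (0.45, adjusted p = 0.0091), and TG against IG did not pass (-0.24, adjusted p = 0.22).

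Both retinoid genes of the set fell in NG as well as in TG. Aldh1a2 encodes the dehydrogenase that makes retinoic acid from retinaldehyde, and lies at chr9:71215789-71296243 on the plus strand. It had 376 and 307 normalised reads in TG, 458 and 416 in NG, and 756 and 657 in IG. IG stood well above both injured groups, which were close to each other. Aldh1a2 was 2.07-fold lower in TG than in IG (-1.05 ± 0.13, limma adjusted p = 0.0015) and 1.61-fold lower in NG than in IG (-0.69 ± 0.13, adjusted p = 0.0029). TG against NG, -0.36 ± 0.13, fell just short (adjusted p = 0.0507).

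Crabp2 encodes a protein that carries retinoic acid to its nuclear receptors, and lies at chr3:87948666-87953376 on the plus strand. It had 241 and 235 normalised reads in TG, 294 and 335 in NG, and 601 and 614 in IG. Again IG was far above, and TG was below NG without overlap. The gene was 2.54-fold lower in TG than in IG (-1.35 ± 0.11, limma adjusted p = 1.8e-04), 1.32-fold lower in TG than in NG (-0.40 ± 0.11, adjusted p = 0.015) and 1.93-fold lower in NG than in IG (-0.95 ± 0.11, adjusted p = 1.8e-04).

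Among 17 other retinoid pathway genes, 1 rose and 7 fell in TG against IG, with a median of -0.47. That median is -0.30 with Cyp26c1, which had no read in TG, set at its bound of 3 reads. Rbp4, the carrier of retinol in blood, which liver also makes, fell by 1.66 and Stra6, the membrane receptor for it, by 1.00. Aldh1a1, another retinaldehyde dehydrogenase, fell by 0.65. In NG against IG, 9 rose and 4 fell, with a median of 0.48, and in TG against NG 3 rose and 10 fell, with a median of -0.70. Stra6 fell by 1.63 in NG against IG. Rbp4 (-2.14) and Rarg, a retinoic acid receptor (-1.83), fell in TG against NG. Cyp26a1 and Cyp26c1, enzymes that break retinoic acid down, passed as higher in NG than in IG on very few reads: at most 8.75 and 7.23 normalised reads in an NG library, against at most 0.77 and 1.16 in an IG library.

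Ptgds was the most abundant of the 10. It encodes the lipocalin-type synthase of prostaglandin D2, a main secreted protein of the leptomeninges, and lies at chr2:25466709-25470046 on the minus strand. It had 12444 and 12762 normalised reads in TG, 11367 and 12394 in NG, and 28168 and 30064 in IG. Both injured groups stood far below IG and beside each other. Ptgds was 2.31-fold lower in TG than in IG (-1.21 ± 0.08, limma adjusted p = 9.8e-05) and 2.45-fold lower in NG than in IG (-1.29 ± 0.08, adjusted p = 1.1e-05). The difference of TG from NG was 0.09 ± 0.08 (adjusted p = 0.45).

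Of 8 other genes of the prostaglandin D2 pathway, Ptges, a prostaglandin E2 synthase, was the only one called in TG against IG, at -1.01, and the list's median was -0.28 (-0.21 with a gene at 0 in one group set at its bound). In NG against IG, 2 rose and 2 fell, with a median of 0.10. Ptgs2, the inducible cyclooxygenase, fell by 3.54, Ptges fell by 1.70 and Ptgdr, a receptor for prostaglandin D2, rose by 1.40. In TG against NG, 2 rose and 4 fell, with a median of -0.47 (-0.28 with bounds). Ptgs2 rose by 3.60, with 474 and 486 normalised reads in TG, 53.5 and 27.7 in NG, and 464 and 451 in IG. Ptgdr fell by 2.32, and Hpgd, which degrades prostaglandins, by 0.75.

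By limma on log2(normalised reads + 1), the 2 proteoglycan genes were the ones of the set called higher in NG against IG. Dcn encodes decorin and lies at chr10:97479609-97518143, plus strand. It had 1939 and 1916 normalised reads in TG, 8532 and 7852 in NG, and 4383 and 3979 in IG. NG was highest and TG lowest, with wide gaps. Dcn rose 1.96-fold in NG over IG (0.97 ± 0.08, limma adjusted p = 3.6e-05). It was 4.25-fold lower in TG than in NG (-2.09 ± 0.08, adjusted p = 6.4e-07) and 2.17-fold lower in TG than in IG (-1.12 ± 0.08, adjusted p = 1.2e-04).

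Lum encodes lumican and lies 46984 bases from Dcn, at chr10:97565128-97572703 on the same strand. It had 341 and 322 normalised reads in TG, 3068 and 2581 in NG, and 940 and 777 in IG. The order of the groups was that of Dcn. Lum rose 3.29-fold in NG over IG (1.72 ± 0.12, limma adjusted p = 1.6e-05). It was 8.47-fold lower in TG than in NG (-3.08 ± 0.12, adjusted p = 6.7e-07), the largest change among the 10, and 2.58-fold lower in TG than in IG (-1.36 ± 0.12, adjusted p = 2.9e-04).

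The wider family of 11 small leucine-rich proteoglycan genes had 8 that rose and 1 that fell in NG against IG (median 0.98), 11 that fell in TG against NG (median -1.76), and 9 that fell in TG against IG (median -1.09). Bgn, biglycan, rose by 1.77 in NG against IG, Aspn, asporin, fell by 3.13 in TG against NG, and Ogn, osteoglycin, and Omd, osteomodulin, fell by 2.15 and 1.46 in TG against IG. Kera and Epyc, the next genes along the chromosome from Lum, were scarce outside NG. Kera had 1.61 and 0 normalised reads in TG, 180 and 136 in NG, and 10.8 and 16.2 in IG. Epyc had 0.80 and 5.70 in TG, 77.8 and 55.4 in NG, and 17.0 and 10.4 in IG. Kera passed the test in all 3 comparisons and Epyc in those with NG.

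The 2 forkhead genes peaked in NG, but with a wide spread. Foxc1, whose loss in mice stops the meninges from forming fully, lies at chr13:31806633-31812476, plus strand. It had 281 and 314 normalised reads in TG, 625 and 1247 in NG, and 441 and 716 in IG. NG A lay below IG B, so NG and IG overlapped, while TG stood below both. Foxc1 was 2.97-fold lower in TG than in NG (-1.57 ± 0.31, limma adjusted p = 0.0034). TG against IG (-0.92 ± 0.31, adjusted p = 0.11) and NG against IG (0.65 ± 0.31, adjusted p = 0.14) did not pass.

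Foxd1, a factor of stromal progenitors, lies at chr13:98354242-98359305 on the plus strand. It had 84.5 and 103 normalised reads in TG, 290 and 616 in NG, and 173 and 304 in IG. Its overlaps were those of Foxc1. It was 4.50-fold lower in TG than in NG (-2.17 ± 0.36, limma adjusted p = 0.0012), while TG against IG (-1.29 ± 0.36, adjusted p = 0.057) and NG against IG (0.88 ± 0.36, adjusted p = 0.087) did not pass. In the authors' deposited table Foxd1 passed in TG against NG (adjusted p = 0.046) and Foxc1 did not (adjusted p = 0.090).

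Of 9 other forkhead genes of mesenchyme, 4 rose in NG against IG (median 0.59), 5 fell in TG against NG (median -0.85) and 1 fell in TG against IG (median -0.21). Foxs1, Foxd2 and Foxc2 rose by 2.36, 1.95 and 1.13 in NG against IG. In TG against NG, Foxd2 fell by 3.11, Foxs1 fell by 2.31 and Foxl1 fell by 2.22. Foxc2, close kin of Foxc1, was the one that fell in TG against IG, at -1.02 (limma adjusted p = 0.017). Foxf2 and Foxq1, the nearest forkhead genes to Foxc1 on its chromosome, did not pass in any comparison, with log2 fold changes of -0.08 and -0.06 in TG against IG, -0.78 and -0.33 in NG against IG, and 0.70 and 0.28 in TG against NG.

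**Figure D2:**
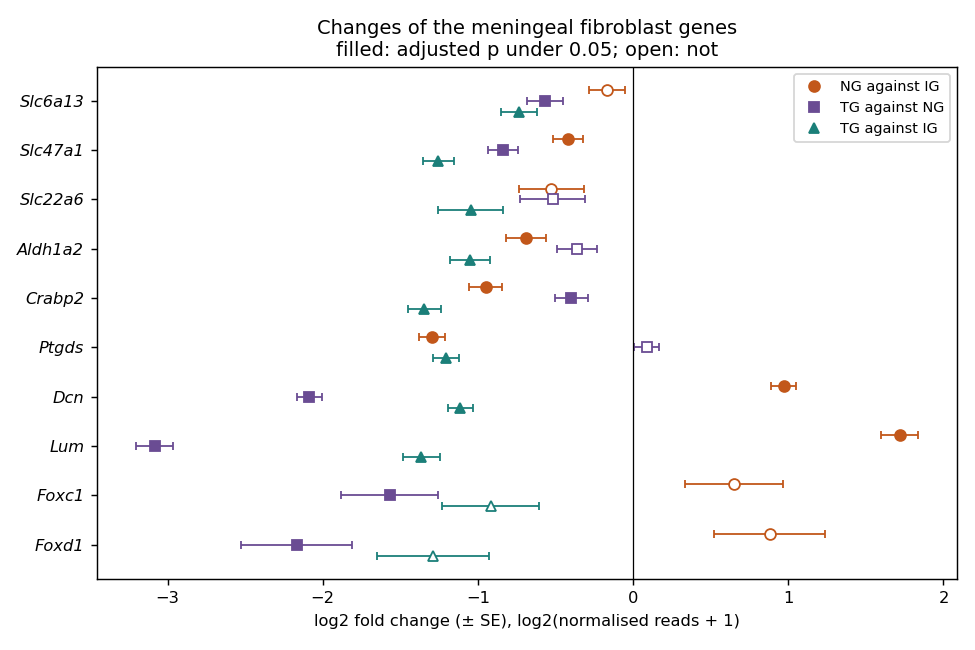
Log2 fold changes of the 10 genes from limma on log2(normalised reads + 1), with bars of 1 SE; circles are NG against IG, squares TG against NG and triangles TG against IG, filled where the adjusted p was under 0.05. The triangles stand in a band from -1.36 to -0.73, while the circles run from -1.29 to 1.72 and the squares from -3.08 to 0.09.

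The 2 forkhead genes also differed between the libraries of a group. Foxc1 was higher in library B than in A by 0.16 (log2) in TG, 1.00 in NG and 0.70 in IG, and Foxd1 by 0.28, 1.09 and 0.81. Over 13669 genes, the 10% of genes richest in GC had median differences of 0.15 in TG, 0.36 in NG and 0.26 in IG, and the 10% poorest -0.09, -0.21 and -0.15. The longest transcripts of Foxc1 and Foxd1 have 55.9% and 54.4% GC. Ptgds, with 56.4%, was higher in B by at most 0.12. Slc6a13, with 54.7%, was higher in B by at most 0.23, in NG, and was lower in B in IG (-0.07). The members lowest in GC were lower in B in every group: Dcn, with 37.4%, by 0.02 in TG, 0.12 in NG and 0.14 in IG, and Lum, with 41.9%, by 0.08, 0.25 and 0.27. So were Aldh1a2, with 50.6% GC, at -0.29 in TG, -0.14 in NG and -0.20 in IG, and Slc47a1, with 50.5%, at -0.11, -0.05 and -0.12. The part of GC in the differences between groups was not tested beyond the following fits. In an alternative chosen after seeing the data, with each library centred within 20 bins of GC, limma called 10 of the 10 genes in TG against IG, 8 in NG against IG and 9 in TG against NG, where Ptgds then passed as higher. Over all genes 19.5%, 46.6% and 51.0% were called. In another, also chosen then, the fit had a term for library B against A, which rank depth and are not known to pair the libraries. It called 10 in TG against IG, 9 in NG against IG and 9 in TG against NG, against 23.9%, 49.1% and 53.2% of all genes. Foxc1 and Foxd1 passed there in all 3 comparisons, with adjusted p = 6.1e-05 and 9.9e-06 in TG against IG and 5.2e-04 and 1.3e-04 in NG against IG.

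**Figure D3:**
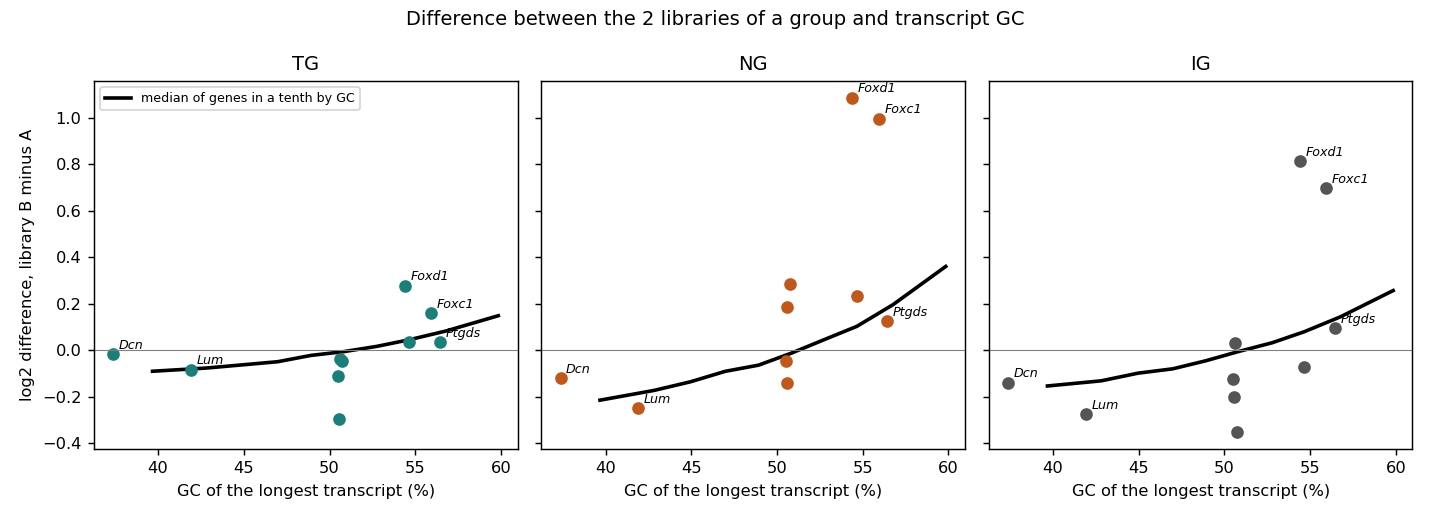
Log2 difference of library B from library A within TG, NG and IG, against the GC percentage of each gene's longest transcript; points are the 10 genes and the line joins medians of all genes in bins of GC. Foxc1 and Foxd1 lie far above the line in NG, at 1.00 and 1.09, and in IG, at 0.70 and 0.81, and nearer to it in TG.

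Per kilobase of exon, Ptgds led in every group, at 7643 ± 136 normalised reads per kilobase in TG, 7205 ± 440 in NG and 17657 ± 813 in IG (SD, n = 2 each). Dcn followed at 330 ± 2.80 in TG, 1403 ± 82.3 in NG and 716 ± 49.0 in IG. In TG the order went on with Crabp2, Aldh1a2, Lum, Slc47a1, Slc6a13, Foxc1, Foxd1 and Slc22a6, and Aldh1a2 and Lum overlapped. In NG Lum stood next, at 1154 ± 141, ahead of Crabp2 at 238 ± 21.7 and Aldh1a2 at 193 ± 13.1. Aldh1a2 overlapped there with Foxc1, Foxc1 with Slc47a1, and Slc6a13 with Foxd1. In IG the order was that of TG with Lum ahead of Aldh1a2, and these 2 overlapped again. Slc22a6 was last in each group, at 13.1 ± 0.31 in TG, 19.0 ± 2.68 in NG and 27.5 ± 4.76 in IG.

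The patterns across the 6 libraries were compared by the distance between log2 profiles centred on their means. Among the 10, the closest pairs were Slc22a6 with Aldh1a2 (0.41) and Slc47a1 with Slc22a6 (0.43). Foxc1 and Foxd1 were 0.62 apart, Dcn and Lum 1.05, and Ptgds and Lum, the farthest pair, 3.59. Searched among 13719 genes with a mean of at least 50 normalised reads, the nearest gene to Aldh1a2 was Slc13a4, a sulphate carrier of the leptomeninges, at 0.15, followed by Fmo5 and Ccl11. Lum lay nearest to Aspn (0.15), then Retnlg and Chil3, and Dcn to Gypc (0.11), Smoc2 and Ncf1. Ptgds lay nearest to Egr2 (0.28), Perp and Timp3, and Crabp2 to Lmna (0.22), Vtn and Ifitm1. Slc6a13 lay nearest to Tnfrsf1a (0.17), Itga7 and Btd, Slc47a1 to Kcnj14 (0.17), Art3 and Col12a1, and Slc22a6 to Disp1 (0.30), Ahr and Pxdc1. The forkhead genes had no gene closer than Ammecr1 (0.44) for Foxc1, then Rhbdf2 and Sipa1, and Plekha4 (0.45) for Foxd1, then Trim47 and Twist1.

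Most general fibroblast genes fell with the set in TG against IG and TG against NG. In NG against IG the set's median was -0.29, while most general fibroblast genes rose. Of 12, none of them members, 11 fell in TG against IG (median -1.16), 9 rose and 2 fell in NG against IG (median 1.14), and 10 fell in TG against NG (median -2.36). Col1a1, a fibrillar collagen chain, averaged 4301 ± 13.8 normalised reads in TG, 34874 ± 3955 in NG and 10417 ± 949 in IG (SD, n = 2 each). The levels of the 10 genes were therefore also set against the summed reads of these 12, a ratio chosen after the group values were seen and given as a description. Per 1000 fibroblast reads, the 10 genes in TG stood at 0.840 to 1.31 times their IG value, with a median of 0.974. In NG they stood at 0.151 to 1.22 times their IG value, with a median of 0.303.

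Ptgds came to 617 ± 14.4 per 1000 fibroblast reads in TG, 98.4 ± 3.60 in NG and 653 ± 11.9 in IG (SD, n = 2 each). Aldh1a2 came to 16.7 ± 2.31 in TG, 3.62 ± 0.33 in NG and 15.9 ± 2.01 in IG. Slc6a13 came to 11.6 ± 0.27 in TG, 2.93 ± 0.27 in NG and 8.89 ± 0.57 in IG. NG stood far below TG and IG for each of these genes. The fibroblast sum they are divided by was itself highest in NG, at 118591 to 122779 normalised reads, against 20362 to 20525 in TG and 43726 to 45482 in IG. Before this division, Slc6a13 was not called in NG against IG (log2 fold change -0.17). TG and IG overlapped for Aldh1a2, while Ptgds was lower in both TG libraries than in both IG libraries (0.945 times) and Slc6a13 higher in both (1.31 times). Dcn, at 94.3 ± 0.27 in TG, 67.9 ± 5.65 in NG and 93.9 ± 9.02 in IG, and Lum, at 16.2 ± 0.58 in TG, 23.4 ± 3.43 in NG and 19.3 ± 3.11 in IG, differed less between groups.

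**Figure D4:**
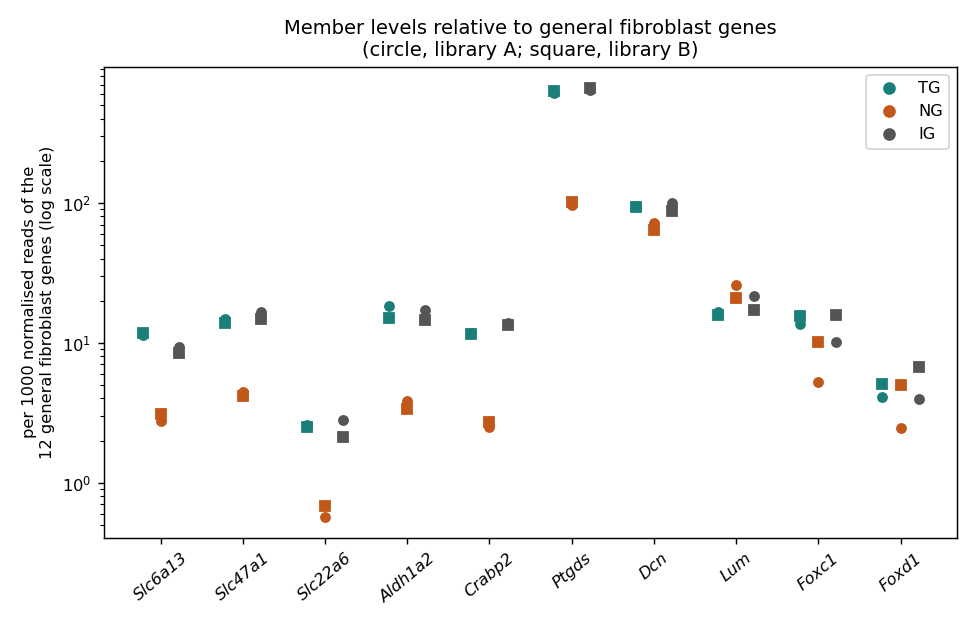
Each of the 10 genes per 1000 normalised reads of 12 general fibroblast genes, on a log axis, with TG, NG and IG side by side (circles, library A; squares, library B). TG stood at 0.840 to 1.31 times IG, and the NG mean was lowest for every gene except Lum. Among the genes where it was lowest, NG libraries overlap those of IG for Foxc1 and Foxd1, and those of TG for Foxd1.

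Among 30 other leptomeningeal and meningeal genes, 1 rose and 22 fell in TG against IG, with a median of -0.88. Itih2, a hyaluronan-binding protein chain, fell by 1.84, Asgr1, a lectin receptor, by 1.65 and Bmp5, a growth factor, by 1.38, while Zic1, a transcription factor of dorsal spinal cord and meninges, was the one that rose (0.75). Itih2 and Asgr1 are known from liver cells as well. The 10 liver markers had a median of -8.13 in this comparison, and their part in these falls was not tested. In NG against IG, 12 rose and 11 fell, with a median of -0.22. Tbx18, a mesenchymal transcription factor, rose by 2.87 and Angptl2, a secreted glycoprotein, by 1.53, while Itih2 fell, with 209 ± 33.7 normalised reads in NG and 590 ± 7.54 in IG (SD, n = 2 each). In TG against NG, 5 rose and 18 fell, with a median of -0.68, and Tbx18 fell by 3.09, Angptl2 by 2.36 and Twist1, a factor of cranial mesenchyme, by 2.28. Slc22a8 and Foxc2 stand in this list and in one of the family lists above.

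**Figure D5:**
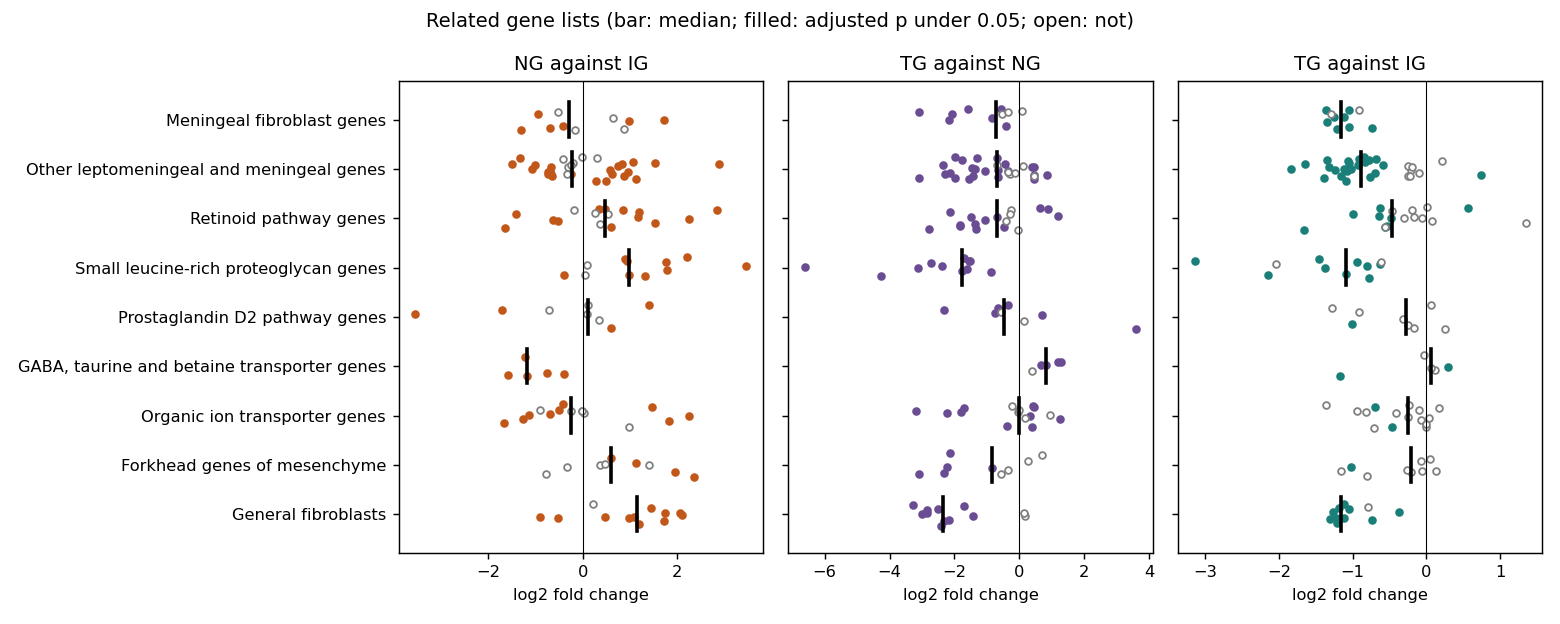
Log2 fold changes of the 10 genes, the 7 related gene lists and the general fibroblast genes in the 3 comparisons, with a point for each gene (filled where the adjusted p was under 0.05) and a bar at the list's median. In TG against IG the medians of the 10 genes (-1.16), the proteoglycan family (-1.09) and the general fibroblast genes (-1.16) lie furthest to the left, and in TG against NG those of the proteoglycan family (-1.76) and the general fibroblast genes (-2.36) do.

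Markers of other tissues moved with the groups too. The 10 liver markers, albumin (Alb) among them, summed to 54 to 56 normalised reads in TG, 93 to 96 in NG and 24136 to 25181 in IG, and all 10 fell in TG against IG and in NG against IG. The 9 fat cell markers summed to 1308 to 1330 in TG, 40038 to 42851 in NG and 2004 to 2008 in IG, and all 9 rose in NG against IG and fell in TG against NG. Of the 9 skeletal muscle markers with a read (Tnnc2 was at 0), 8 rose in NG against IG and 8 fell in TG against NG, and the list summed to 12326 to 12461 in TG, 84401 to 88880 in NG and 9423 to 9699 in IG. Their part in the results on the 10 genes was not tested. The 14 markers of kidney, where 3 of the transporters are also made, summed to 114 to 141 in TG, 98 to 118 in NG and 102 to 118 in IG. None of the 14 was called in TG against IG by limma or limma voom, with 3 at an unadjusted p under 0.05 in each. In NG against IG 3 rose and 1 fell, and in TG against NG 1 rose and 3 fell. The part of kidney or liver RNA in the levels of the transporters was not tested.

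All 15 neuron markers fell in NG against IG and rose in TG against NG, and 7 rose in TG against IG. Of the 14 oligodendrocyte lineage markers, a lineage that also makes Ptgds, 12 fell in NG against IG and 12 rose in TG against NG, with 1 that fell. In TG against IG, where Ptgds fell by 1.21, 4 of these markers rose and 2 fell, and their median was 0.08. The part of these shares in the levels of the 10 genes was not tested. Some oligodendrocyte lineage markers stand in other lists too: Pdgfra in that of general fibroblasts, Cspg4 in that of smooth muscle and pericytes, and Sox10 in that of Schwann cells.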

How the data were processed

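Per the labels' protocols, Trizol was used for RNA and an Illumina TruSeq kit for the libraries. The submitters' processing notes name Bowtie2 2.0.6, HTSeq 0.6.1 and mm10. Not given in the sources used here are the annotation, the counting settings, strand included, and the tool that made the deposited p-values. The authors deposited 3 tables of 35275 genes, 1 for each pair of groups, with a signal for each group, a log2 fold change and an adjusted p-value. The deposited signal is the mean over 2 libraries of reads divided by size factors, and the deposited log2 fold change of NG and IG runs as IG over NG. Each group stands in 2 tables with different factors, so the reads of both libraries could be solved: 100% of genes gave whole reads within 0.001, with a largest distance of 3.9e-06.

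The plan covered both group means and values per library, and the recovered reads were used. Size factors were medians of ratios, taken over all 6 libraries. limma 3.58.1 in R 4.3.3, with a trended prior (3 residual and 5.23 prior degrees of freedom), was fitted to log2(normalised reads + 1) of 24511 genes with a read. All 6 libraries entered one fit, tests were two-sided, and calls needed a Benjamini-Hochberg adjusted p under 0.05. On this scale, changes of scarce genes are understated. The script was tested on simulated data. An exact permutation test of 2 libraries against 2 cannot go below p = 0.33, so none was used. Symbols and positions come from GENCODE M21 on mm10, which matched 34490 of the 35275 IDs. Slc6a13 and Aldh1a2 overlap a small RNA gene and a pseudogene on the other strand, which the tables do not list.

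The 10 genes and all lists were chosen with earlier results of these data known. Named genes were all 10 members; from each of 7 related lists, at most 3 called genes a comparison by size of change, with any neighbour of a member; from each of 16 marker lists, at most 2 genes by level per kilobase; and the 3 genes nearest to each member over the 6 libraries. Zic1, Foxf2, Foxq1, Slc47a2, Slc22a8, Kera and Epyc are named as a single count or as neighbours. Alternatives were other pseudocounts, a filter, other scalings, limma voom, fits on 4 libraries, leaving out each library, the deposited table and, chosen after seeing the data, centring on GC and a term for library B against A. Some genes that the naming rule takes are not reported here.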

Additional observations from a re-analysis of the deposited data

How the results depend on the processing

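The direction of each of the 10 genes in each comparison was the same under all 16 alternatives. Of the values for single genes, 397 stayed on their side of the threshold, 59 dropped out and 24 came in. The count of genes called in TG against IG, 8 of 10, ran from 0 to 6 when 1 library was left out. It was 0 without TG A, TG B, IG A or IG B. In TG against NG the count, 7 of 10, ran from 3 to 7, with 3 without TG A or TG B, and in NG against IG, 6 of 10, from 4 to 6. Where a group had 1 library left, that library was assumed to vary like the other groups. In TG against IG, 10 of 10 were called on the 4 libraries of the 2 groups, with a term for library B against A or with GC centring, and 9 with a filter at a mean of 10 normalised reads or with scaling by total reads. Of all genes tested, 15.4% were called on the 4 libraries, 18.9% with the filter and 11.4% with scaling by total reads. In TG against IG the calls over all genes were 2779, against 4726 with GC centring and 5862 with the term for library B, the cause not tested. On 4 libraries they numbered 3652. Left out 1 at a time, TG A, TG B, IG A and IG B gave 2, 0, 76 and 81, and NG A and NG B 1012 and 944. For NG against IG, 9818 genes were called with all libraries, against 6252 without IG A and 6316 without IG B, and 11101 in TG against NG, against 7776 without TG A and 7804 without TG B. In NG against IG, Foxd1 ranged over the alternatives from 0.34 to 1.42, the widest range of the 10 genes. With limma voom Foxd1 passed there as higher (0.90, adjusted p = 0.0475). That fit called 8 of the 10 in NG against IG, against 40.9% of all genes. The filter and scaling by total reads each gave 7 of the 10, against 58.6% and 40.5% of all genes. No paired analysis was possible because the deposited columns are group means that carry no replicate numbers, and A and B rank depth only. Depth limits Slc22a6, with 45 to 159 reads a library, and the scarce genes Kera, Epyc, Cyp26a1 and Cyp26c1. Elsewhere the 2 libraries a group limit the precision.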

Other observations

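Markers of further cell types gave these counts. Of 10 smooth muscle and pericyte markers, 8 rose in NG against IG, 9 fell in TG against NG, and 1 rose and 3 fell in TG against IG, and they summed to 4590 to 4741 normalised reads in TG, 25794 to 26188 in NG and 4799 to 4990 in IG. Acta2, smooth muscle actin, averaged 343 in TG, 10044 in NG and 281 in IG. Of 9 endothelial markers, 7 rose and 1 fell in NG against IG, 1 rose and 6 fell in TG against NG, and 1 fell in TG against IG. Of 12 bone and cartilage markers, 5 rose and 1 fell in NG against IG, 8 fell in TG against NG, and 1 rose and 3 fell in TG against IG. Among 10 markers of microglia or macrophages, 6 rose and 1 fell in NG against IG, 1 rose and 6 fell in TG against NG, and 2 fell in TG against IG.

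Of 10 astrocyte markers, 1 rose and 8 fell in NG against IG, 8 rose in TG against NG, and 1 rose and 1 fell in TG against IG. Of 8 ependymal markers, 1 rose and 5 fell in NG against IG, 6 rose and 1 fell in TG against NG, and none was called in TG against IG by limma, with 3 at an unadjusted p under 0.05 and 1 called by limma voom. Of 8 choroid plexus markers with a read (Otx2 was at 0), 1 rose and 1 fell in NG against IG, 1 rose and 2 fell in TG against NG, and 3 fell in TG against IG. Ttr, one of the liver markers that fell in TG against IG and in NG against IG, stands in this choroid plexus list too. Aqp1, a water channel of that tissue and of others, averaged 447 in TG, 3768 in NG and 865 in IG. Of 7 red blood cell markers, 2 rose and 1 fell in NG against IG, 4 rose and 2 fell in TG against NG, and 2 fell in TG against IG.

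Of 8 Schwann cell markers, 6 fell in TG against IG, 2 rose and 3 fell in NG against IG, and 2 rose and 5 fell in TG against NG. Mbp, a myelin protein that oligodendrocytes make as well, stands in this list, which summed to 1410670 to 1434340 normalised reads in TG, 873512 to 946686 in NG and 1203530 to 1284310 in IG. The list's medians were -1.03 in TG against IG, -0.36 in NG against IG and -0.99 in TG against NG.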
